A study of Mus musculus with 11 samples.

Results

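Potassium channel genes were followed through 2 cell fractions of the back skin of K5-myrAkt(L84) transgenic mice. The members are all genes whose only symbol in the array platform's annotation begins with Kcn, without the imprinted RNA Kcnq1ot1. The rule found 83 genes of 18193, and for each the probe set brightest on average across the arrays was read. Of these, 2 genes (Kcnmb4os1 and Kcnmb4os2) are named as transcripts from the strand opposite Kcnmb4 and are no channel subunits. Keratinocytes had been labelled with an antibody against CD34, a surface protein that marks the stem cells of the follicle's bulge in mice, and parted with magnetic beads. Total RNA of 5 CD34+ and 6 CD34- samples was measured on single-channel Affymetrix arrays. All 11 samples carry the transgene, in which the keratin 5 promoter drives myristoylated, membrane-bound Akt in basal keratinocytes and the outer follicle. Mice lacking the transgene were not analysed here, so that no effect of Akt is measured. The labels give neither age nor hair cycle stage, and they also name the CD34- samples as follicle stem cells, which the study's design text does not. They do not say whether arrays came from separate mice, so that p-values measure only the spread between these samples, which may be technical.

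Potassium channels let potassium ions leave or enter the cell along their gradient and so set the membrane potential, which in turn shapes calcium entry, cell volume and growth. Their genes fall into families. Leak channels with tandem pores (Kcnk) are open at rest, inward rectifiers (Kcnj) pass current mainly near the resting potential, voltage-gated channels (Kcna, Kcnb, Kcnc, Kcnd, Kcnh and Kcnq) open on depolarization, and a further family (Kcnma, Kcnn, Kcnt and Kcnu) includes channels gated by calcium or sodium. Auxiliary genes (Kcnab, Kcne, Kcnip and Kcnmb) and silent subunits (Kcnf, Kcng, Kcns and Kcnv) change how the pore subunits behave. In skin, potassium channels are known from keratinocyte differentiation, and drugs that open ATP-sensitive potassium channels are known to promote hair growth.

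The upstream sequences of Kcnma1, Kcnk2 and Kcne4, the 3 genes with the largest differences among the 14 members bright enough to test, are shown for their unlike make-up. They are RefSeq sequences of build GRCm38.p6, read on the gene's strand from 250 bases before to 50 bases after the first listed start. Capitals mark every match, on either strand, to any of 7 motifs: TAATTA (the core of LIM homeodomain factors such as Lhx2), CTTTGA (Tcf/Lef), ACAAAG (Sox factors, which shares 5 letters with the Tcf/Lef core when read on the other strand), GGAAA (NFAT), GTAAACA (FoxO), TATAAA (the TATA box) and GGGCGG (the GC box).
Kcnma1, chr14:24004156-24004455, minus strand: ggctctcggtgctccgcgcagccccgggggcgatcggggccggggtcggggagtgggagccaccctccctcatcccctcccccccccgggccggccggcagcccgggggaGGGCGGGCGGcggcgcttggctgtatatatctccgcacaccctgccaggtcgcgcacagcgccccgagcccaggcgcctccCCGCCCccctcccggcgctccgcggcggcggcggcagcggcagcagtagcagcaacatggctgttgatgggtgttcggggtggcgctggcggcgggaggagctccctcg
Kcnk2, the first of 4 listed starts, chr1:189402224-189402523, minus strand: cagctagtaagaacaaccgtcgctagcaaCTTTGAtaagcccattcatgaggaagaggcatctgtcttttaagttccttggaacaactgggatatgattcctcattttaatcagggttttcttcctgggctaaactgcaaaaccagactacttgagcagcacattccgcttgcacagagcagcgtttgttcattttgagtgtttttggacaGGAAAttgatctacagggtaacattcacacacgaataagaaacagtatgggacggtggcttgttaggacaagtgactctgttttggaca
Kcne4, chr1:78816661-78816960, plus strand: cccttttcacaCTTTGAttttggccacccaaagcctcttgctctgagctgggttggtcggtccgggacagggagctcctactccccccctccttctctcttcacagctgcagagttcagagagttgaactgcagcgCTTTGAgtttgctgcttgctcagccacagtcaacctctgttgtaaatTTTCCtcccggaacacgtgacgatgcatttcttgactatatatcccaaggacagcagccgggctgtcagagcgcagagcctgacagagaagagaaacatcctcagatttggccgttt
The Kcnma1 sequence had 36 CpG dinucleotides, 78.0% G or C and 3 matches to the GC box. The Kcnk2 sequence had 6 CpG dinucleotides and 43.0% G or C, with 1 Tcf/Lef match and 1 NFAT match, and that of Kcne4 had 9 and 52.7%, with 2 Tcf/Lef matches and 1 NFAT match. Among 27018 promoters of all genes the Tcf/Lef core was found in 16.2%, the NFAT core in 61.3% and the GC box in 35.9%. Of the 83 members 63 had a listed promoter, with a median of 10 CpG dinucleotides against 7 over all promoters. The GC box was in 34 of the 63 (54.0%), the NFAT core in 32 (50.8%), the Sox core in 8 (12.7%, against 18.7% of all promoters), the Tcf/Lef core in 6 (9.52%) and the TATA box in 3 (4.76%, against 14.2%). Neither the LIM homeodomain nor the FoxO core was in any of the 63, and 5.32% and 3.55% of all promoters held them. A match of letters is a description and does not show that a factor binds.

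The deposited values are log2 MAS5 signals, scaled by the authors to a common mean, and the number of arrays limits their precision. The median over all probe sets other than controls was 6.71 to 7.23 on CD34+ arrays and 6.35 to 6.51 on CD34- arrays, so that dim genes as a whole read higher in CD34+ cells. The log2 ratio of the 3-prime to the 5-prime actin control, which is larger where RNA or its copies are shorter, was 2.90 to 5.24 on CD34+ arrays and 2.19 to 2.76 on CD34- arrays, with the highest value on CD34+ array 1. Cd34 lay at 12.92, 10.54, 10.59, 12.58 and 12.54 on CD34+ arrays 1 to 5 and at 2.00 to 5.50 on CD34- arrays, at least 55.1-fold higher with each array's values below its own 40th percentile set to that percentile. Keratins of basal keratinocytes were bright in both fractions, with mean log2 signals of 14.94 and 15.02 for Krt5 and of 14.05 and 14.36 for Krt14 in CD34+ and CD34- cells. All 8 listed bulge markers were called higher in CD34+ cells in the test described below, against 12.4% of all tested genes. The list was chosen with earlier results of these data known, so the count is no independent check of the fraction.

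Of the 83 members 14 lay above the brightness filter, which left out the 40% of genes with the lowest mean signal (under 6.59), and were tested with limma over all 10916 such genes. At a Benjamini-Hochberg adjusted p under 0.05, 6 members were higher and 1 was lower in CD34+ cells. Of all tested genes 12.4% were called higher and 12.3% lower, 24.7% in all (1350 higher and 1347 lower, against 395 and 5217 with equal array medians, where 5 members were higher and 3 lower). The 6 were Kcnma1, Kcnk2, Kcne4, Kcnh3, Kcnh1 and Kcnj3, and the lower one was Kcnj16. The median log2 difference (CD34+ minus CD34-) was 0.44 over the 14 members and 0.00 over all tested genes. These medians are not like for like, since the members were dimmer, with a median level of 7.81 against 9.52. For mean signals from 6.59 to 7.75 the median difference was 0.32 over all genes and 1.18 over 6 members. From 7.75 to 8.69 it was 0.07 and 0.29 (5 members), and from 9.52 to 10.34 it was -0.07 and 0.05 (3 members). Neither the calls nor these medians describe the family. Kcnma1, Kcnk2 and Kcne4 had a CD34- mean under 6.59 and passed the filter only through their CD34+ arrays. In bulk samples a gene that is higher in the same cells and a larger share of cells that express it cannot be told apart.

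**Figure D1:**
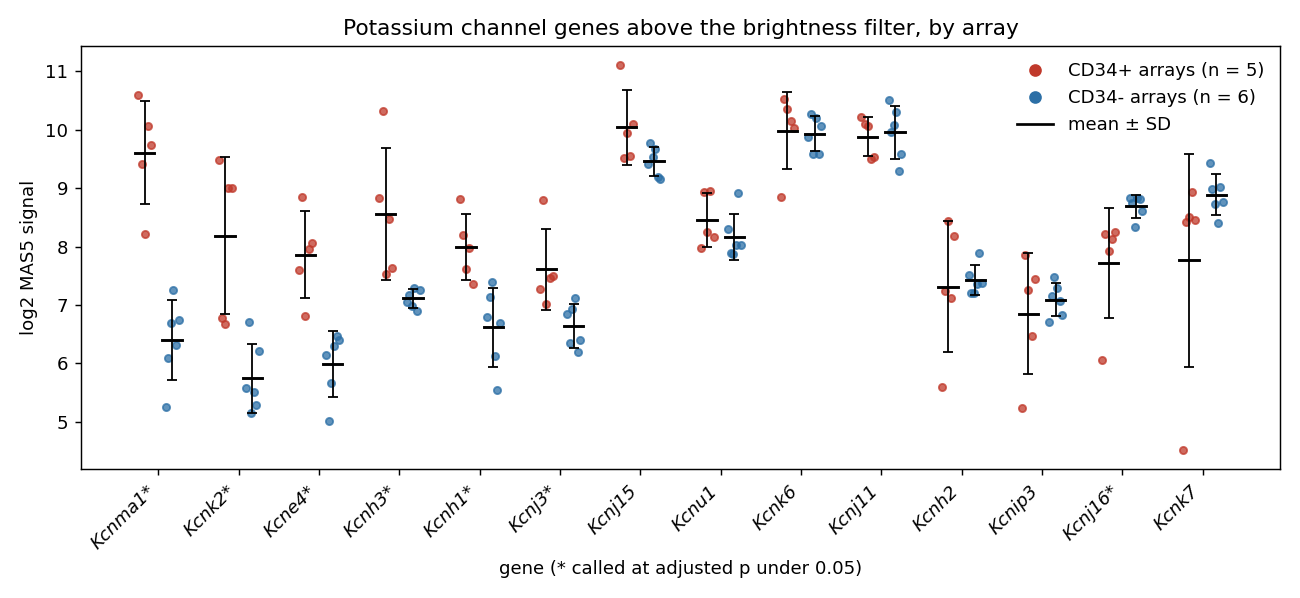
Log2 MAS5 signal (vertical axis) of the 14 tested potassium channel genes (horizontal axis, ordered by difference) on each of 5 CD34+ arrays (red) and 6 CD34- arrays (blue), with bars for mean ± SD and a star for genes called at an adjusted p under 0.05. Kcnma1, Kcne4 and Kcnh3 do not overlap between the fractions, Kcnk2 splits into high and low CD34+ arrays, and CD34+ array 1 lies far under the others for Kcnj16 and Kcnk7.

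Among channels gated by calcium or sodium, Kcnma1 was clearly higher in CD34+ cells. It encodes the pore of the large-conductance BK channel, which opens on calcium and depolarization. Its log2 signals on CD34+ arrays 1 to 5 were 10.59, 9.42, 8.22, 10.07 and 9.75, and those on CD34- arrays were 5.25 to 7.26 with a median of 6.50. Every CD34+ array lay above every CD34- array. The log2 difference was 3.22 (SE 0.40, adjusted p = 1.64e-04), a 9.31-fold higher signal, which ranked 40 from the top among 10916 tested genes. With its dim values, on 2 of 6 CD34- arrays, raised to the 40th percentile it was 8.34-fold higher. Its call was kept with each array left out in turn (2.97 to 3.57, highest adjusted p = 8.07e-04). A model with the actin ratio as an added term gave 3.02 (adjusted p = 0.042) and called no other member. The lowest actin ratio on CD34+ arrays, 2.905, lay above the highest on CD34- arrays, 2.76. That model therefore cannot cleanly separate an effect of shorter RNA from the fraction. No conclusion is drawn from calls kept or lost in it, here or below.

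Kcnma1 has 5 probe sets, and all of them read higher in CD34+ cells. Probe sets 1440728_at and 1424848_at did not overlap between the fractions and had adjusted p of 3.63e-04 and 0.00107 over all probe sets that passed the filter. On 5 of 6 CD34- arrays 1440728_at was under the 40th percentile, and with these values raised to it the probe set was 6.65-fold higher in CD34+ cells. Probe set 1457018_at, which was too dim over all arrays to pass, lay at 6.96 to 9.86 in CD34+ and at 0.65 to 3.78 in CD34- cells. On all 6 CD34- arrays 1424848_at and 1457018_at were under the 40th percentile, and raised to it they were at least 3.63-fold and 4.08-fold higher in CD34+ cells. Probe set 1425987_a_at differed by 1.32 (SE 0.48, adjusted p = 0.0622), and its lowest CD34+ value of 5.54 was on array 1, where the other probe sets of the gene were at their highest.

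**Figure D2:**
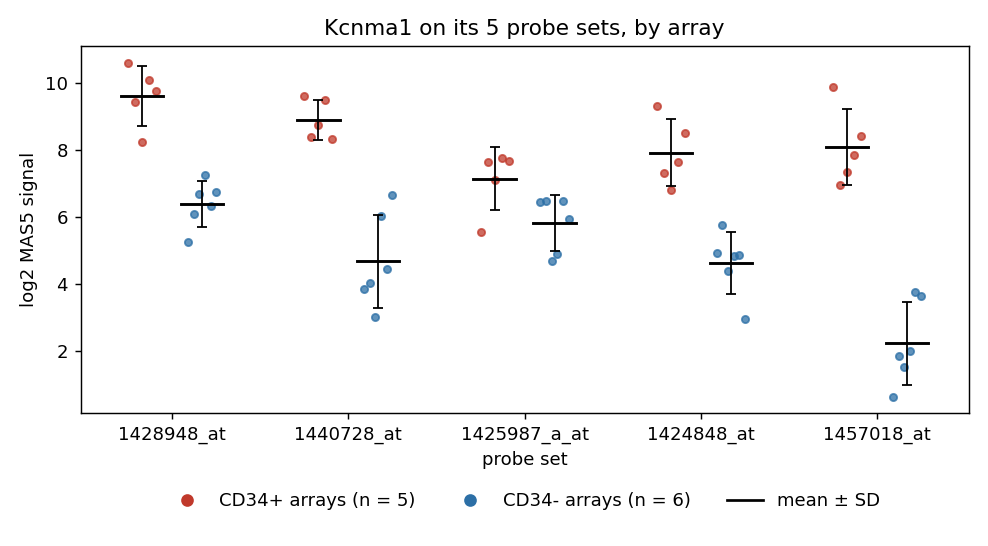
Log2 MAS5 signal (vertical axis) of the 5 probe sets of Kcnma1 (horizontal axis, from the brightest mean on the left) on 5 CD34+ arrays (red) and 6 CD34- arrays (blue), with bars for mean ± SD. The fractions are apart on 4 probe sets and overlap on 1425987_a_at, where CD34+ array 1 lies at 5.54.

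No auxiliary gene of the BK channel passed the filter, and the related pore gene Kcnu1 was not called. Kcnu1, known as a potassium channel of sperm, lay at 8.46 ± 0.46 (SD, n = 5) in CD34+ and 8.17 ± 0.39 (SD, n = 6) in CD34- cells. Its difference of 0.29 was not called (95% confidence interval -0.23 to 0.81, adjusted p = 0.395). The auxiliary gene Kcnmb4 lay just under the filter, at 7.77, 8.08, 6.27, 6.32 and 6.33 on CD34+ arrays 1 to 5 and 5.89 to 6.57 on CD34- arrays. Its 2 high values were those of CD34+ arrays 1 and 2, and the fractions overlapped. Kcnmb1, the auxiliary subunit best known from smooth muscle, and Lrrc26, an auxiliary protein of the BK channel, were dim. Kcnmb1 was under the 40th percentile on 4 of 5 CD34+ and 5 of 6 CD34- arrays, and Lrrc26 on all 11.

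Among leak channels, Kcnk2 was higher in CD34+ cells. Its product is a channel that responds to membrane stretch, heat and lipids. Its log2 signals on CD34+ arrays 1 to 5 were 9.48, 6.77, 6.68, 9.01 and 9.00, and those on CD34- arrays were 5.16 to 6.70 with a median of 5.54. Arrays 1, 4 and 5 stood more than 2 log2 units above arrays 2 and 3, of which array 3 lay just under the highest CD34- array and array 2 just above it. The difference was 2.45 (SE 0.52, adjusted p = 0.00509), a 5.46-fold higher signal. On 4 of 6 CD34- arrays Kcnk2 was under the 40th percentile, and with such values raised to it the signal was 4.08-fold higher, so the size of the difference rests partly on dim readings. Its call was kept with each array left out in turn (2.13 to 2.83, highest adjusted p = 0.0141). Adjusted for the actin ratio the difference was 2.60 and was not called (adjusted p = 0.179). CD34+ arrays 2 and 3 were also the 2 with the lowest Cd34 signal, at 10.54 and 10.59 against 12.54 to 12.92 on the other 3. Of the other called members, Kcnma1 was also lowest on arrays 2 and 3, at 9.42 and 8.22 against 9.75 to 10.59 on the other 3. Kcne4, Kcnh3 and Kcnj3 were at their highest on array 2 and at their lowest on array 3. Kcnh1 was lowest on array 5 and Kcnj16 on array 1. A link between Kcnk2 and Cd34 over the arrays was not tested.

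The other tested leak channel genes were not called. Kcnk6 lay at 9.98 ± 0.66 (SD, n = 5) in CD34+ and 9.93 ± 0.30 (SD, n = 6) in CD34- cells, a difference of 0.05 (95% confidence interval -0.50 to 0.60, adjusted p = 0.902) that turned to -0.43 with equal array medians. Kcnk7, a subunit not known to form a working channel by itself, was at 4.51, 8.42, 8.51, 8.93 and 8.45 on CD34+ arrays 1 to 5 and at 8.40 to 9.44 on CD34- arrays. Only CD34+ array 1 stood apart. The difference of -1.12 (SE 0.61, adjusted p = 0.186) went to -0.31 without that array, and with equal array medians it was -1.60 and called (adjusted p = 0.035). Kcnk1, a weak background channel, was under the filter with a mean of 6.17, and its difference of -0.99 went to -0.08 without CD34+ array 4, where it read 1.96.

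Among inward rectifiers, 1 gene was higher and 1 lower. Kcnj3, a subunit of channels opened by G proteins, was at 7.26, 8.80, 7.02, 7.46 and 7.50 on CD34+ arrays 1 to 5 and at 6.19 to 7.12 on CD34- arrays, with a median of 6.62. The fractions overlapped at CD34+ array 3, and CD34+ array 2 stood highest. The difference was 0.97 (SE 0.32, adjusted p = 0.0388), a 1.96-fold higher signal. Its call was lost on leaving out CD34+ array 2, 4 or 5 or CD34- array 1, 2, 3, 5 or 6 (highest adjusted p = 0.0766). Quantile normalization gave 0.62 (adjusted p = 0.178). The other 3 probe sets of Kcnj3 did not pass the filter.

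Kcnj16, which combines with other rectifiers into channels sensitive to acid, was the member lower in CD34+ cells. It read 6.05, 8.22, 7.93, 8.14 and 8.25 on CD34+ arrays 1 to 5 and 8.33 to 8.83 on CD34- arrays, with a median of 8.78. The fractions did not overlap, but apart from CD34+ array 1 they lay close together. The difference was -0.97 (SE 0.33, adjusted p = 0.0467), and it was -0.56 without CD34+ array 1, still called. Its call was lost on leaving out CD34+ array 3 or any CD34- array (highest adjusted p = 0.0837). Adjusted for the actin ratio the difference was 0.025. The other probe set of Kcnj16 differed by -1.17 (SE 0.48, adjusted p = 0.094), again without overlap.

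The tested rectifier genes Kcnj11 and Kcnj15 were not called. Kcnj11, the pore of ATP-sensitive channels, lay at 9.88 ± 0.34 (SD, n = 5) in CD34+ and 9.96 ± 0.46 (SD, n = 6) in CD34- cells, with a difference of -0.07 (95% confidence interval -0.54 to 0.39, adjusted p = 0.829). Its other probe set, 1450515_at, was under the 40th percentile on all 11 arrays. With equal array medians Kcnj11, read from its brightest probe set, was called lower (-0.55, adjusted p = 0.0368). Kcnj15 read 11.11, 9.51, 9.94, 9.55 and 10.09 on CD34+ arrays 1 to 5 and 9.16 to 9.78 on CD34- arrays, a difference of 0.58 (SE 0.25, adjusted p = 0.0951). Without CD34+ array 1 it was 0.32 (adjusted p = 0.177), while the mean of its probe sets was called higher (0.67, adjusted p = 0.044). Its probe sets disagreed on the call. Probe set 1443054_at did not overlap between the fractions, with 7.92 to 8.83 in CD34+ and 6.64 to 7.55 in CD34- cells (1.12, SE 0.24, adjusted p = 0.00725), while 1450185_a_at differed by 0.32 (adjusted p = 0.342).

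Only 3 voltage-gated pore genes were tested, Kcnh1, Kcnh2 and Kcnh3, all of the ether-a-go-go family, and Kcnh1 and Kcnh3 were higher in CD34+ cells. Kcnh1, whose product is known from brain and from tumour cells, read 8.81, 8.21, 7.61, 7.98 and 7.35 on CD34+ arrays 1 to 5 and 5.55 to 7.38 on CD34- arrays, with a median of 6.74. Only CD34+ array 5 reached into the CD34- range. The difference was 1.38 (SE 0.35, adjusted p = 0.0125), a 2.60-fold higher signal. It was 0.76 after adjustment for the actin ratio (adjusted p = 0.574), and without both CD34+ arrays 1 and 2 it was 1.04 (adjusted p = 0.0681). The other probe set of Kcnh1 differed by 0.97 (SE 0.35, adjusted p = 0.0609).

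Kcnh3, known from neurons of the forebrain, read 8.83, 10.32, 7.53, 8.48 and 7.64 on CD34+ arrays 1 to 5 and 6.90 to 7.29 on CD34- arrays, with a median of 7.12. The fractions did not overlap, and CD34+ arrays 3 and 5 lay nearest to the CD34- arrays. Its SD was 1.13 in CD34+ and 0.16 in CD34- cells, while the fit took the same variance for both. The difference was 1.45 (SE 0.39, adjusted p = 0.0179), a 2.73-fold higher signal. It was 0.57 after adjustment for the actin ratio (adjusted p = 0.716) and 0.77 without both CD34+ arrays 1 and 2, still called. Of its 3 other probe sets 2 passed the filter and differed by 0.55 (adjusted p = 0.334) and 1.26 (adjusted p = 0.0879), and the mean of its probe sets was not called (1.10, adjusted p = 0.0524). Kcnh2, the pore of a repolarizing current of the heart, lay at 7.31 ± 1.12 (SD, n = 5) and 7.42 ± 0.26 (SD, n = 6) in CD34+ and CD34- cells and was not called (adjusted p = 0.857).

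Among auxiliary genes of voltage-gated channels, Kcne4 was higher in CD34+ cells. Its product is a small membrane protein that dampens several voltage-gated channels. Its log2 signals were 7.59, 8.86, 6.81, 7.96 and 8.07 on CD34+ arrays 1 to 5 and 5.01 to 6.47 on CD34- arrays, with a median of 6.21. Every CD34+ array lay above every CD34- array, with CD34+ array 3 the nearest. The difference was 1.87 (SE 0.37, adjusted p = 0.00342), a 3.64-fold higher signal (3.06-fold with dim values, on 2 of 6 CD34- arrays, raised to the 40th percentile), and the call was kept with each array left out in turn (1.62 to 2.13, highest adjusted p = 0.00956). Adjusted for the actin ratio the difference was 1.84 and was not called (adjusted p = 0.182). Kcnip3, a calcium sensor that binds voltage-gated channels and DNA, was not called (-0.24, 95% confidence interval -1.08 to 0.61, adjusted p = 0.687). None of the 9 silent subunit genes passed the filter.

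The fractions were apart, with every CD34+ array above every CD34- array, for 3 of the 14 tested members (Kcnma1, Kcne4 and Kcnh3) and for 7.64% of all tested genes. Every CD34+ array was below every CD34- array for 1 member, Kcnj16, and for 7.37% of all tested genes.

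**Figure D3:**
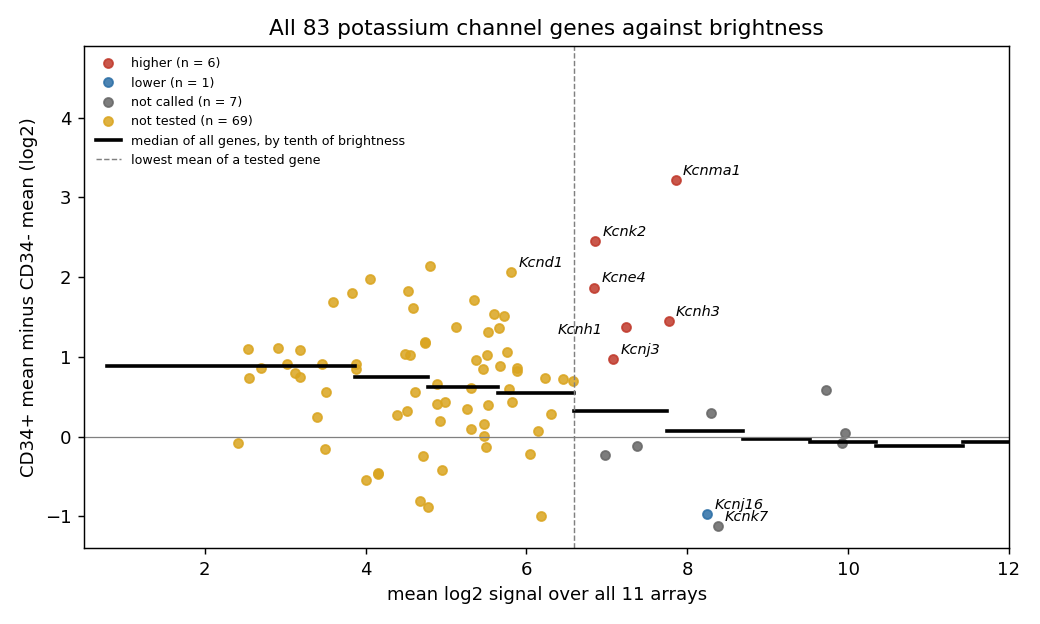
CD34+ mean minus CD34- mean on the log2 scale (vertical axis) against the mean log2 signal over all 11 arrays (horizontal axis) for the 83 potassium channel genes, coloured by call. Black lines are the median of all genes in each of 10 classes of brightness, from 0.88 in the dimmest to -0.06 in the brightest, and most members left of the dashed filter line scatter around them.

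Most potassium channel genes were too dim to test. Of 83 members 24 lay below the 40th percentile of every array and 6 were above it throughout. The 69 that did not pass the filter had a median difference of 0.74, and 57 of them had a higher mean in CD34+ cells. Over all 7277 genes that did not pass, the median was 0.70 and 81.3% had a higher mean in CD34+ cells, close to the values of the dim members. By family, 3 of 22 voltage-gated pore genes, 4 of 15 inward rectifiers, 3 of 12 leak channels, 2 of 8 calcium- or sodium-activated pores, 2 of 12 auxiliary genes of voltage-gated channels and 0 of 3 BK auxiliary genes were tested.

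Without overlap between the fractions, and higher in CD34+ cells, were 3 of the 69 (Kcnd1, Kcnk4 and Kcnab1), a share near the 4.15% of all genes that did not pass. Kcnd1, the pore of a fast inactivating voltage-gated channel, read 7.75, 6.95, 6.76, 6.64 and 6.56 on CD34+ arrays 1 to 5 and was under the 40th percentile on all 6 CD34- arrays, at 3.05 to 5.91. Raised to that percentile it was at least 1.84-fold higher in CD34+ cells. Its other probe sets, 1421538_at and 1446556_at, were too dim to pass and overlapped between the fractions, with differences of 3.42 and 0.22. Kcnk4, a leak channel gated by stretch, read 5.95 to 6.53 in CD34+ and 3.60 to 5.32 in CD34- cells, and was under the 40th percentile on 4 of 5 and 6 of 6 arrays. In a fit without the brightness filter Kcnd1 and Kcnk4 were called higher (adjusted p = 0.0155 and 0.0183). That fit called 7 members higher and 0 lower, against 8.23% and 6.44% of all 18193 genes. Kcnd3 and Kcnc1, whose higher group mean also lay above the filter's limit, were not called in it (adjusted p = 0.170 and 0.345), nor were Kcnmb4 and Kcnk1 (adjusted p = 0.232 and 0.355).

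**Figure D4:**
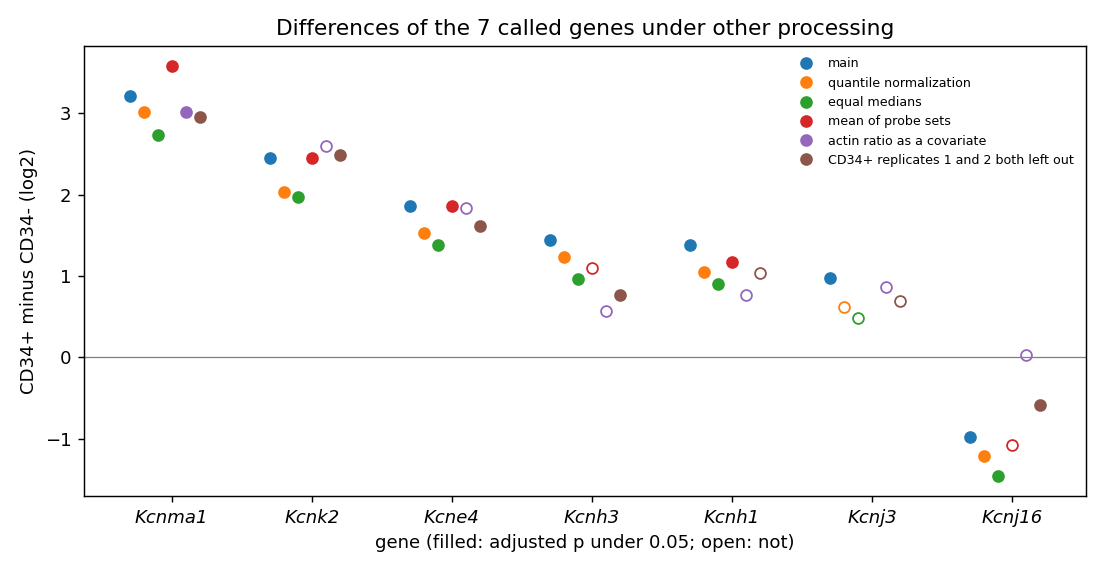
CD34+ minus CD34- difference on the log2 scale (vertical axis) of the 7 called potassium channel genes (horizontal axis) under the reported processing, named main, and 5 other settings, filled where the adjusted p was under 0.05. Kcnma1 is called in all 6 settings shown, Kcnk2 and Kcne4 in all but the fit with the actin ratio, and Kcnj16 moves to 0.025 in that fit.

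Genes that work with potassium channels, the pumps and cotransporters that move potassium and their regulating kinases, were read from a list of 50, of which 42 were found and 21 tested. In CD34+ cells 6 fell and 3 rose, against 12.3% and 12.4% of all tested genes, and their median difference was -0.11. Pumps and cotransporters were called in both directions. The beta subunits of the sodium-potassium pump Atp1b1 and Atp1b3 differed by -1.30 (SE 0.36, adjusted p = 0.0207) and -0.83 (SE 0.23, adjusted p = 0.0217). Slc12a2, the cotransporter that brings in sodium, potassium and chloride, differed by -0.82 (SE 0.26, adjusted p = 0.0345), and Slc12a4, which lets potassium and chloride out, by -0.82 (SE 0.22, adjusted p = 0.0168). Atp1b3 and Slc12a2 did not overlap between the fractions and were lowest on CD34+ array 1, without which they differed by -0.53 and -0.49, both still called. Adjusted for the actin ratio their differences were 0.031 and 0.070.

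Regulators moved both ways. Oxsr1, a kinase that activates Slc12a2, fell by 0.69 (SE 0.24, adjusted p = 0.0487) and Nedd4l, a ubiquitin ligase of ion channels, fell by 0.42 (SE 0.13, adjusted p = 0.033). Wnk4, a kinase upstream of Oxsr1, rose by 0.67 (SE 0.16, adjusted p = 0.00977) and did not overlap between the fractions, at 9.04 to 9.86 in CD34+ and 8.41 to 8.80 in CD34- cells. Atp12a, a proton-potassium pump (0.84, SE 0.27, adjusted p = 0.0345), and Tmem175, a potassium channel of lysosomes (0.68, SE 0.22, adjusted p = 0.0355), also rose. The calls of Atp12a, Nedd4l, Oxsr1, Slc12a2 and Tmem175 were lost on leaving out any of 6, 7, 9, 6 and 6 arrays (highest adjusted p = 0.0714, 0.072, 0.0991, 0.0683 and 0.0762). With equal array medians 0 of the 21 tested genes of the list were higher and 11 lower, against 3.62% and 47.8% of all tested genes.

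Markers of other cells that use these channels were read beside them, from lists chosen with earlier results of these data known. Of all tested genes 12.4% were called higher and 12.3% lower. Of 8 smooth muscle and pericyte markers 2 were tested and both rose, Acta2 (2.05, adjusted p = 0.0153) and Cspg4 (0.90, adjusted p = 0.0126). The log2 of the summed signal of all 8 was 10.49 to 12.11 on CD34+ and 9.56 to 10.13 on CD34- arrays, while 3 of the 8, among them the defining markers Myh11 and Cnn1, were dim on all 11 arrays. Acta2 read 10.78, 11.79, 8.24, 11.10 and 8.52 on CD34+ arrays 1 to 5. Both Acta2 and Kcnma1 were lowest on CD34+ array 3, at 8.24 and 8.22, and on array 5 they were at 8.52 and 9.75. The 6 Merkel cell markers summed to 10.04 to 12.12 on CD34+ and 8.17 to 8.36 on CD34- arrays, without overlap. Of these only Krt8 was tested and it rose (3.58, SE 0.34, adjusted p = 1.77e-05), while Atoh1 and Krt20 were under the 40th percentile on 3 and 4 of 5 CD34+ arrays and on all 6 CD34- arrays. Of 9 myeloid and Langerhans cell markers, all tested, 4 rose, Csf1r (1.20, adjusted p = 0.022), Adgre1 (1.03, adjusted p = 0.0117), Itgax (0.89, adjusted p = 0.044) and Tyrobp (0.85, adjusted p = 0.0252), and Ptprc, shared by all leukocytes, fell by 1.81 (adjusted p = 0.00626). Their sums overlapped, at 11.37 to 12.88 and 11.52 to 12.25. The 7 fibroblast markers summed to 12.71 to 13.96 on CD34+ and 11.66 to 12.93 on CD34- arrays, with 2 of 3 tested higher. Nerve and glia markers, 6 of 8 found, summed to 11.13 to 11.58 and 11.60 to 11.87, with 1 of 2 tested lower and Tubb3 dim on all arrays. The 8 melanocyte markers summed to 13.00 to 13.83 and 12.45 to 14.73, with 1 of 8 higher and 1 lower. None of 7 endothelial markers was tested, none of 5 tested sebocyte markers was called, and of 6 keratinocyte markers 1 rose and 3 fell. The part of these cells in the differences of the channel genes was not tested.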

How the data were processed

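The authors deposited 1 log2 signal per probe set and array, made by MAS5 according to the submitters' processing notes. Its version is not given in the sources used here. Values were taken as log2 because their linear mean after trimming 2% from each end is 500.002 to 500.004 on all 11 arrays. Depth does not apply to arrays. The table holds 45101 probe sets, 64 of them controls. By the platform annotation 34945 had 1 gene symbol, 932 had several and 9160 had none, and only those with 1 symbol were used. Members, lists and alternatives were chosen with earlier results of these data known, so no choice is independent of them.

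Values were used without further normalization. Fractions were compared with limma 3.58.1 in R 4.3.3 (linear model, empirical Bayes with a trend on intensity and 5.5 prior degrees of freedom, Benjamini-Hochberg adjustment over 10916 genes), and every adjusted p comes from limma unless a rank-sum test is named. The model took the same variance of a gene in both fractions. CD34+ arrays were less alike, with a lowest correlation between arrays of 0.865 within CD34+ and 0.965 within CD34-. Standard errors and p-values depend on that assumption. Each gene was read from its brightest probe set, and the dimmest 40% of genes (7277) were left out. Probe sets of a gene were compared in a second fit over all probe sets with 1 symbol, without the dimmest 40% of those, whose limit is lower. The limma comparison was also run on simulated data with independent normal noise and the same spread in both fractions. That setting differs from these arrays, so it does not show the error rate here. Alternatives changed the scaling, the filter, the choice of probe set, the test, the threshold and the arrays, or added the actin ratio or the replicate number. Percentiles of an array are over its probe sets with 1 symbol.

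Named by rule were Cd34, Krt5 and Krt14, each called member, the 8 brightest members, the member with the smallest p of a family without a call, up to 5 members left out by the filter, and called genes of the list of pumps, cotransporters and regulators. Kcnh2, Kcnip3, Kcnk4, Kcnab1, Kcnmb1, Lrrc26, the channel genes of the closing section and the marker genes were chosen with their values in view.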

Additional observations from a re-analysis of the deposited data

Results flagged for a closer look

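On single arrays 7 named genes read far from the rest of their group, where the gap to the nearest array took up most of the group's range, and 58 groups of 29 genes were examined, of which chance flags about 1 in 20 (2.9 of 58). On CD34+ array 1, which had the highest actin ratio (5.24), 4 genes were low. Kcnj16 read 6.05 against 7.93 to 8.25 on the other CD34+ arrays, Kcnk7 4.51 against 8.42 to 8.93, Atp1b3 11.69 against 12.92 to 13.38 and Slc12a2 10.86 against 12.36 to 12.71. Kcnj3 was high on CD34+ array 2, at 8.80 against 7.02 to 7.50. Kcnk1 was low on CD34+ array 4, at 1.96 against 5.99 to 6.96. Krt14 was high on CD34+ array 3, at 14.78 against 13.72 to 14.01.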

How the results depend on the processing

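Of the 6 potassium channel genes called higher, none was bright enough to be tested with the brightest 40% of genes. Only Kcnk6, Kcnj11 and Kcnj15 were tested there, so that setting says nothing about the 6 calls. At an adjusted p under 0.01, 3 of the 6 (Kcnma1, Kcnk2 and Kcne4) were called, and 5.02% of all tested genes were higher. The fit adjusted for the actin ratio called 1 (Kcnma1), and over all genes it called 0.88% higher and 0.27% lower. Since the ratio did not overlap between the fractions, that fit cannot cleanly separate an effect of shorter RNA from the fraction. Leaving out single arrays gave 5 to 6 higher and 0 to 1 lower members. The count of 1 lower member was 3 with equal medians. It was 0 with no brightness filter, the mean of probe sets, a test of each probe set and no intensity trend. An adjusted p under 0.01, at least a 2-fold difference, the actin ratio and the replicate block also gave 0. With the brightest 40% of genes Kcnj16 was not tested. The exact rank-sum test, quantile normalization, array weights, an offset of 50, raised dim values and leaving out both CD34+ arrays 1 and 2 each gave 1. The titles give both groups the numbers 1 to 5, but deviations of same-numbered arrays correlated at 0.02 to 0.19, and 1 of 5 CD34+ arrays correlated best with its own number, so the numbers were not taken to pair the samples. The block gave 5 higher members in place of 6, without Kcnj3 (adjusted p = 0.0982) and, on the lower side, without Kcnj16 (adjusted p = 0.061).

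The median difference of the tested members, 0.44, was -0.043 with equal medians and 0.37 to 0.48 without single arrays. It was 0.74 with no brightness filter (all 83 members) and 0.052 with the brightest 40% of genes (3 members). Those sets of members differ from the 14 of the main fit, and 0.052 is the value of Kcnk6. Equal medians shifted the median of all tested genes from 0.00 to -0.48 and their calls from 1350 higher and 1347 lower to 395 and 5217, and even so Kcnma1, Kcnk2, Kcne4, Kcnh1 and Kcnh3 were called higher.

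Of the pumps, cotransporters and regulators, the 3 higher became 1 with quantile normalization, the brightest 40% of genes, array weights, an adjusted p under 0.01 and without both CD34+ arrays 1 and 2, and 0 with equal medians, at least a 2-fold difference and the actin ratio. Atp12a and Tmem175 were too dim to be tested with the brightest 40% of genes. The 6 lower became 11 with equal medians, where 47.8% of all tested genes were called lower. They became 2 with the mean of probe sets, 3 with the rank-sum test and 1 at a 2-fold difference. An adjusted p under 0.01 and the actin ratio gave 0. Without single arrays the counts were 1 to 3 higher and 3 to 5 lower.

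Some differences changed sign. With the actin ratio Kcnj16 was 0.025, Kcnk7 0.94, Atp1b3 0.031 and Slc12a2 0.070. With equal medians Kcnk6 was -0.43 and Kcnu1 -0.19, and with the mean of probe sets Kcnj11 was 0.64 and Nedd4l 0.48. Without single arrays Kcnk6 ranged from -0.086 to 0.34 and Kcnj11 from -0.21 to 0.038. The causes were not tested.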

Other observations

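ATP-sensitive potassium channels, the target of drugs that promote hair growth, consist of a pore (Kcnj8 or Kcnj11) and a sulfonylurea receptor (Abcc8 or Abcc9). Kcnj8 was under the 40th percentile on all 11 arrays, at 1.80 to 5.56 in CD34+ and 1.80 to 5.39 in CD34- cells, and so were Abcc8 and Abcc9. Of the 4 genes Kcnj11 alone was above it, and on 1 of its 2 probe sets only, since 1450515_at was dim on all 11 arrays. Without detection calls a dim value does not show that a gene is off. In the fit without the brightness filter Abcc9 was called higher (2.27, adjusted p = 0.0406), as were 8.23% of all genes. It read 3.77 to 6.43 in CD34+ and 1.49 to 4.19 in CD34- cells, so this difference rests on dim readings that overlap. Abcc8 and Kcnj8 were not called in that fit (adjusted p = 0.267 and 0.497).

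Kcna3 and Kcnn4 are the channels best known from T cells. Of the listed T cell markers 5 of 5 tested were called lower in CD34+ cells, against 12.3% of all tested genes. The 8 found markers had a summed log2 signal of 8.80 to 10.92 in CD34+ and 11.29 to 12.22 in CD34- cells. Their list was chosen with earlier results of these data known. Neither channel gene passed the filter. Kcna3 had a mean of 5.25 ± 1.70 (SD, n = 5) in CD34+ and 4.58 ± 1.17 (SD, n = 6) in CD34- cells. Kcnn4 read 5.59 to 7.20 in CD34+ and 3.85 to 6.74 in CD34- cells, and in the fit without the brightness filter it was not called (adjusted p = 0.0927).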
